A study of Mus musculus with 10 samples.

Results

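The 10 genes described here, *Vegfa*, *Bnip3*, *Ankrd37*, *Egln3*, *Egln1*, *Car9*, *Adm*, *Ndrg1*, *Pdk1* and *Kdm3a*, are known targets of the hypoxia response that do not encode glycolytic enzymes. They were chosen by name from general knowledge of the pathway. The rule held no measured value, but earlier results of these data were known. They are 10 of the 53465 genes in the count table. They were measured by bulk RNA-seq in the pinna prominence, the tissue that forms the external ear, of mouse embryos at stage E14.5. The WT group comprised 5 libraries from wild-type embryos with 2 copies of *mEC1*, an enhancer near *Hmx1*. The *mEC1dup/dup* group comprised 5 libraries from knock-in embryos in which CRISPR/Cas9 editing had added 1 further copy to each allele, giving 4 copies in all. Both genotypes had a C57BL/6J background, and neither carried another allele or had a treatment or a change in oxygen that the labels name. The knock-in is constitutional, so the added copies are present in every cell of the embryo. The replicates were siblings from separate litters, but which libraries share a litter is not given, and p-values therefore measure the spread between these libraries.

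In normal oxygen the prolyl hydroxylases of the Egln family modify the alpha subunits of hypoxia-inducible factor (HIF), which the von Hippel-Lindau protein *Vhl* then marks for degradation. In low oxygen the alpha subunits persist, pair with *Arnt* and bind short DNA elements with the core ACGTG or GCGTG near their target genes. The targets alter blood supply, mitochondrial use of oxygen, acid balance and chromatin, and several of them, *Egln1* and *Egln3* among them, feed back on the pathway.

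The libraries differed in ways beyond the level of the 10 genes. Total counts ranged from 17461544 to 18462073. *Hmx1* separated the labelled genotypes, at 21.7 to 29.1 CPM (the count of a gene relative to the TMM-scaled size of its library) in WT and 52.8 to 77.5 in *mEC1dup/dup*. As a check of the tissue, 7 fibroblast markers summed to 12801 to 20920 CPM in WT and 13430 to 15207 in *mEC1dup/dup*, and 5 chondrocyte markers to 4553 to 7598 and 2050 to 6039. *Xist*, the RNA of the inactive X chromosome in females, had at most 5 counts in each WT library, whereas *mEC1dup/dup* replicates 1 to 5 had 12812, 19040, 18165, 2096 and 0. Sex was therefore not balanced between the genotypes, and *mEC1dup/dup* replicate 5 was the knock-in library without *Xist* counts. The embryonic share of globin counts, which falls as the fetal blood system matures, was 18.4% to 23.3% in WT and 32.6% to 35.6% in *mEC1dup/dup*. Each difference between genotypes reported here comes with these differences, and in bulk tissue fewer cells of a type cannot be told apart from less RNA per cell.

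Motifs near the transcription starts come first, because the pathway is defined by its DNA element. The ACGTG core was searched on both strands from 250 bases before to 50 bases after the start of the canonical GENCODE transcript, in the GRCm39 genome. It was found in 6 of the 10 promoters (60%), compared with 24% of the 16321 promoters of tested genes. A match on both strands at overlapping positions is the palindrome CACGTG, which is also an E-box and was found in *Bnip3* and *Egln1*. In the following 30-base windows, 1 for each of the 6 genes, the sequence runs 5′ to 3′ on the strand of the gene and capitals mark the core or its reverse complement.
Bnip3: cgcacgcgccgcACGTGccacacgctcccc
Ankrd37: ccacccagcagtACGTGcctagctcggctc
Egln3: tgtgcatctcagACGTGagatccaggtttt
Egln1: actacaaatcacACGTGgaaccgacagtct
Car9: tacccagctcctatttccgatgCACGTaca
Ndrg1: ccactcggtgggcaCACGTtcgctgcacac
The *Bnip3* window lies at chr7:138511325-138511354 on the minus strand, with the core beginning at base -89 from the start. The *Ankrd37* window is at chr8:46453111-46453140 on the minus strand, with the core at -223. The *Egln3* window is at chr12:54250872-54250901 and the *Egln1* window at chr8:125677016-125677045, both on the minus strand, with the cores at -216 and -168. In *Car9*, at chr4:43506986-43507015 on the plus strand, and in *Ndrg1*, at chr15:66841753-66841782 on the minus strand, the match was on the opposite strand and downstream, at 43 and 35 bases after the start. In the windows shown, these 2 genes thus differ from the other 4 in where the core lies. The contrast holds for these windows only. *Ankrd37* had another ACGTG core, at 13 bases after its start, and the palindromes of *Bnip3* and *Egln1* match on both strands.

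GCGTG, the other form of the core, was present in 5 of the 10 promoters (50%) and in 45.4% of the promoters of tested genes. It occurred in *Bnip3*, *Ankrd37*, *Adm*, *Ndrg1* and *Pdk1*. *Ndrg1* is shown because it is the gene whose level changed, and of its 4 GCGTG matches those at -141 and -100 are shown, which read along the gene, while those at -14 and 14 are on the opposite strand.
Ndrg1: tcgggagtgactGCGTGgagacccggagga
Ndrg1: ccgcccagaaggGCGTGgcgcgggcagagg
They lie at chr15:66841926-66841955 and chr15:66841885-66841914 on the minus strand, and capitals again mark the core. In all, 8 of the 10 promoters held either form (80%), compared with 57.1% of the promoters of tested genes. *Vegfa* and *Kdm3a* held neither in this window. A match describes letters only and is not a bound site.

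All 10 genes had enough counts to be tested, among 16426 genes. In these pinnae the most abundant was *Vegfa*, the main growth factor of blood vessels. Levels of different genes are compared here as CPM per kb of exon. In WT, *Vegfa* was at 24.6 ± 2.90 (SD, n = 5), followed by *Pdk1* at 13.8 ± 0.849 and *Egln1* at 11.6 ± 0.356. The ranges of *Vegfa*, *Pdk1* and *Egln1* over the WT libraries did not touch each other. *Kdm3a* at 6.68 and *Egln3* at 5.73 CPM per kb came next, with overlapping ranges, and then *Ndrg1* at 3.39 and *Bnip3* at 2.90, which also overlapped. *Adm* at 1.25, *Car9* at 0.731 and *Ankrd37* at 0.672 CPM per kb were the lowest, each overlapping its neighbour in the order. In *mEC1dup/dup* the order was the same but for 1 exchange, with *Bnip3* at 2.59 now above *Ndrg1* at 2.37 CPM per kb, although their ranges overlapped in both genotypes. The ranges of *Pdk1* and *Egln1* overlapped in *mEC1dup/dup*, at 12.1 and 10.8 CPM per kb, whereas they had not in WT.

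One comparison was made, *mEC1dup/dup* against WT, and it asks which transcripts differ when *mEC1* is present in 4 copies. Genes were called at an adjusted p of at most 0.05 with an average log2 CPM of at least 1, from the quasi-likelihood test of edgeR, adjusted over all tested genes after Benjamini and Hochberg. Of the 10 genes, *Ndrg1* was called lower, 1 of 10, where 1.81% of all tested genes were called lower. None was called higher by edgeR, where 0.834% of all tested genes were, and DESeq2 and limma-voom likewise called *Ndrg1* lower and none higher. The log2 fold change was below 0 in 9 of the 10, compared with 51.2% of all tested genes, and its median over the 10 genes was -0.19, compared with -0.0041 over all tested genes. With the embryonic globin share in the model 2 of the 10 were below 0 and the median was 0.27, and with *Xist* in the model all 10 were below 0 and the median was -0.13. An unadjusted p under 0.05 was obtained for *Ndrg1*, *Egln1*, *Pdk1* and *Egln3*, 4 of 10, all lower, against 16.2% of all tested genes. The 10 genes were chosen with earlier results of these data known, so these shares are a description.

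**Figure D1:**
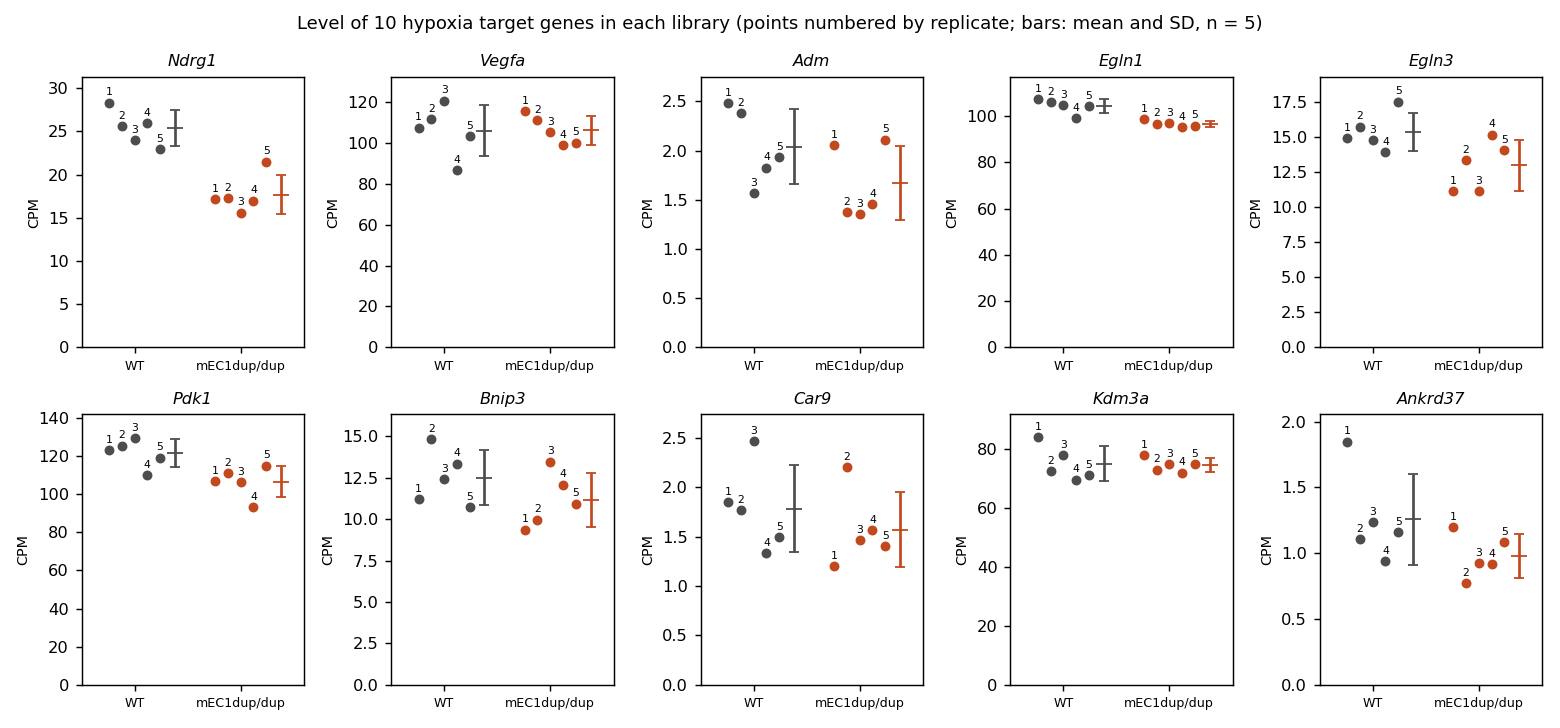
CPM of each of the 10 genes (vertical axes, from 0) in the 5 WT and 5 *mEC1dup/dup* libraries, numbered by replicate, with bars for the mean and SD. The points of *Ndrg1* form separate groups, 22.9 to 28.3 in WT and 15.6 to 21.5 in *mEC1dup/dup*, while those of *Vegfa* and *Kdm3a* lie over each other.

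*Ndrg1* (ENSMUSG00000005125, chr15:66801166-66841835, minus strand) encodes a cytoplasmic protein named as an N-myc downstream regulated gene and linked to differentiation, growth arrest and myelin maintenance in Schwann cells. Its level was 28.3, 25.6, 24.02, 26.0 and 22.9 CPM in WT replicates 1 to 5. In *mEC1dup/dup* replicates 1 to 5 it was 17.1, 17.2, 15.6, 17.0 and 21.5 CPM. Each knock-in library was thus below the lowest WT library, and replicate 5 stood above the other 4 knock-in libraries and closest to WT. The mean fell from 25.4 ± 2.05 to 17.7 ± 2.23 CPM (SD over 5 libraries each). On the log2 scale the change was -0.52 with a standard error of 0.09 and a 95% interval of -0.71 to -0.33 (edgeR quasi-likelihood test, adjusted p = 0.01001). The values rest on 287 to 490 counts per library. Of its exonic bases, 14.2% overlap the antisense genes *Gm17035* and *Gm2895*, and reads of overlapping genes cannot be separated because the library kits do not mark strand.

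The call on *Ndrg1* was kept when any 1 library was left out, with log2 fold changes of -0.60 to -0.48. It was also kept with *mEC1dup/dup* replicates 1 to 3 alone against WT, at -0.61 (edgeR, adjusted p = 0.0120), a selection added after the data were seen. All WT libraries had at most 5 *Xist* counts, so a model with *Xist* rests chiefly on the spread of *Xist* within the knock-in. There, replicates 4 and 5 stood apart with 2096 and 0 counts, and replicate 5 also had the highest *Ndrg1*. The call on *Ndrg1* was lost when the level of *Xist* entered the model, where the log2 fold change was -0.29 (edgeR, adjusted p = 0.428). It was lost as well with the 6 libraries of at most 10 *Xist* counts, in which *mEC1dup/dup* replicate 5 alone stood against the 5 WT libraries and was assumed to vary like them, at -0.24 (edgeR, adjusted p = 0.798). *Hmx1* lost its call in that fit as well, and a fit with 1 knock-in library cannot decide whether *Ndrg1* differs. With the embryonic globin share in the model the estimate was 0.19 with a standard error of 0.33, but that share separates the genotypes without overlap, and the share and the genotype cannot be told apart. With *Xist* in the model 1 gene in the whole table was called lower and 2 were called higher, and with the globin share none was called in either direction by edgeR, the only tool run in that way, and *Hmx1* lost its call with the globin share but not with *Xist*. The unadjusted p was under 0.05 for 1539 and 793 genes, respectively.

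**Figure D2:**
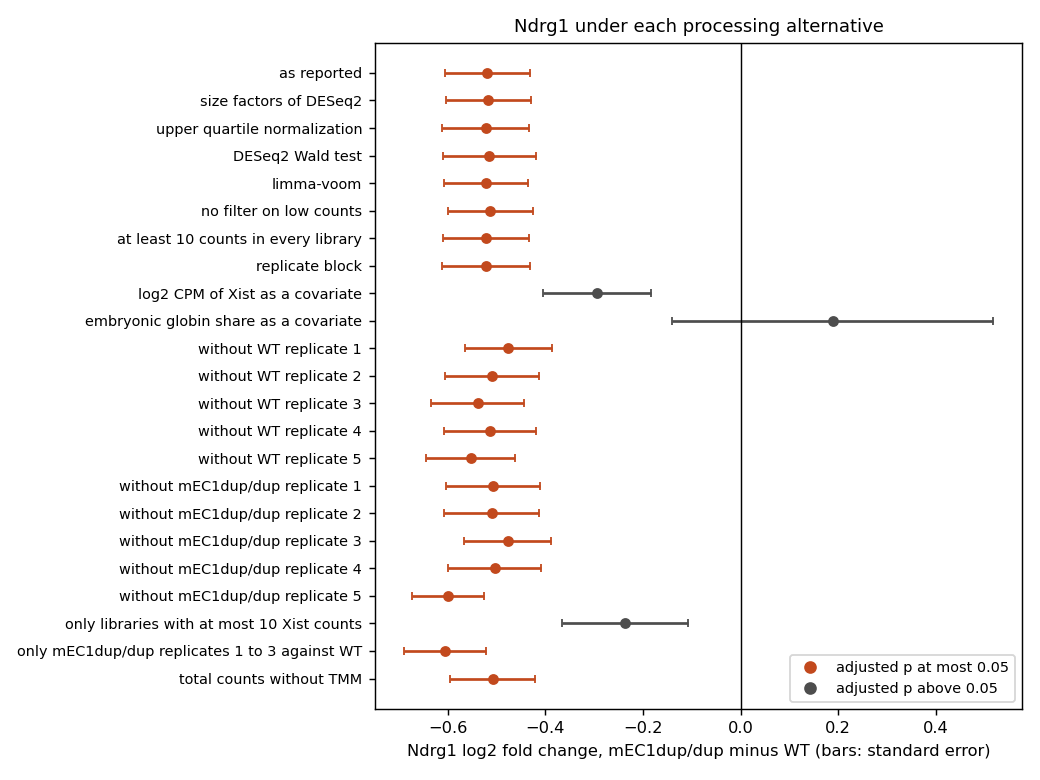
Log2 fold change of *Ndrg1*, *mEC1dup/dup* minus WT (horizontal axis), with its standard error as bars, under each way of processing the counts (vertical axis); colour marks whether the adjusted p was at most 0.05. The leave-one-out estimates lie between -0.60 and -0.48, and those with *Xist* or the globin share in the model, or with only the libraries of at most 10 *Xist* counts, lie between -0.29 and 0.19 and were not called.

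*Egln1* and *Egln3* are the sensors' side of the pathway, since both proteins hydroxylate the HIF alpha subunits and both genes are themselves induced by HIF. *Egln1* (ENSMUSG00000031987, chr8:125635308-125676865, minus strand) is the principal oxygen sensor of most cells. Its level was 107, 106, 105, 99.0 and 104 CPM in WT replicates 1 to 5 and 98.6, 96.7, 96.8, 95.2 and 95.8 CPM in *mEC1dup/dup*. The groups did not overlap, which was so for 2 of the 10 genes, *Ndrg1* and *Egln1*, and for 2.75% of all tested genes in this direction, although WT replicate 4 lay just above the highest knock-in library. The difference was small, a log2 fold change of -0.11 with a standard error of 0.03 and a 95% interval of -0.18 to -0.04, and was not called (edgeR quasi-likelihood test, adjusted p = 0.0967). Without WT replicate 4 it was -0.13 and was called (edgeR, adjusted p = 0.0291).

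*Egln3* (ENSMUSG00000035105, chr12:54225767-54250673, minus strand) is the family member whose transcript is strongly induced by low oxygen in many cell types. It was measured at 15.0, 15.8, 14.8, 14.0 and 17.6 CPM in WT replicates 1 to 5 and at 11.1, 13.4, 11.2, 15.2 and 14.1 CPM in *mEC1dup/dup*. Replicates 1 to 3 of the knock-in were below the lowest WT library, whereas replicates 4 and 5 were within the WT range. The log2 fold change of -0.25 (95% interval -0.46 to -0.03) was not called (edgeR quasi-likelihood test, adjusted p = 0.246). The third member of the family, *Egln2*, had a log2 fold change of 0.05 (edgeR, adjusted p = 0.682).

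*Pdk1* and *Bnip3* act on mitochondria. *Pdk1* (ENSMUSG00000006494, chr2:71703488-71734202, plus strand) inhibits pyruvate dehydrogenase and so keeps pyruvate out of the citric acid cycle. It was at 123, 125, 129.5, 109.9 and 119 CPM in WT replicates 1 to 5 and at 107, 111, 106, 93.4 and 115 CPM in *mEC1dup/dup*. Replicate 4 was the lowest in both groups, and *mEC1dup/dup* replicates 2 and 5 reached the WT range while the other 3 did not. Its log2 fold change was -0.19 with a standard error of 0.06 and a 95% interval of -0.31 to -0.07, and was not called (edgeR quasi-likelihood test, adjusted p = 0.105). Without WT replicate 4 it was -0.23 and was called (edgeR, adjusted p = 0.0279), which brought the genes called lower to 3 of 10, *Ndrg1*, *Egln1* and *Pdk1*, against 2.87% of all genes tested without that library.

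*Bnip3* (ENSMUSG00000078566, chr7:138490690-138511253, minus strand) encodes an outer membrane protein that marks mitochondria for autophagy. Its level ranged from 10.7 to 14.8 CPM in WT and from 9.37 to 13.5 CPM in *mEC1dup/dup*, with 2 knock-in libraries below the WT range. The log2 fold change was -0.16 (95% interval -0.42 to 0.09; edgeR quasi-likelihood test, adjusted p = 0.550). The interval is wide enough to hold both 0 and the value estimated for *Pdk1*, and without 1 library the estimate ranged from -0.24, without *mEC1dup/dup* replicate 3, to -0.09, without WT replicate 2.

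*Vegfa* (ENSMUSG00000023951, chr17:46327919-46343309, minus strand) and *Adm* (ENSMUSG00000030790, chr7:110226858-110229027, plus strand) encode secreted signals to blood and lymph vessels. *Vegfa* was at 107, 111, 120.5, 86.7 and 103 CPM in WT replicates 1 to 5 and at 115, 111, 105, 98.7 and 100.01 CPM in *mEC1dup/dup*. All knock-in libraries lay inside the WT range, and the log2 fold change was 0.00 with a 95% interval of -0.16 to 0.17 (edgeR quasi-likelihood test, adjusted p = 0.988). *Adm*, a peptide hormone, was close to the floor of the call, at 1.57 to 2.48 CPM in WT and 1.36 to 2.11 CPM in *mEC1dup/dup*. Its log2 fold change was -0.29 with an interval of -0.73 to 0.16 (edgeR, adjusted p = 0.547), and of its exonic bases 31.9% overlap the antisense gene *Gm72687*.

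*Car9* (ENSMUSG00000028463, chr4:43506966-43513729, plus strand), a carbonic anhydrase of the cell surface that helps cells export acid, was at 1.33 to 2.47 CPM in WT and 1.20 to 2.20 CPM in *mEC1dup/dup*. Its log2 fold change was -0.18 (95% interval -0.67 to 0.30; edgeR quasi-likelihood test, adjusted p = 0.755), and the antisense gene *Gm12454* overlaps 27.5% of its exonic bases. *Ankrd37* (ENSMUSG00000050914, chr8:46449939-46458744, minus strand), an ankyrin repeat protein, was the lowest of the 10, at 0.942 to 1.85 CPM in WT and 0.772 to 1.20 CPM in *mEC1dup/dup*. Its log2 fold change was -0.36 (95% interval -0.87 to 0.15; edgeR, adjusted p = 0.499), with 14 to 32 counts per library, and 81.4% of its exonic bases overlap *Lrp2bp* and *Ufsp2* on the other strand, so its counts are uncertain. *Ankrd37*, *Car9* and *Adm* had average log2 CPM of 0.29, 0.84 and 0.97, under the threshold of 1, so these 3 genes could not be called whatever their p. Their intervals held both 0 and the -0.52 measured for *Ndrg1*. Single libraries moved these estimates, *Car9* to -0.04 without WT replicate 3, -0.10 without *mEC1dup/dup* replicate 1 and -0.34 without *mEC1dup/dup* replicate 2, and *Ankrd37* to -0.18 without WT replicate 1.

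*Kdm3a* (ENSMUSG00000053470, chr6:71565956-71610472, minus strand), a histone demethylase that itself uses oxygen, was at 84.3, 72.7, 78.0, 69.7 and 71.2 CPM in WT replicates 1 to 5. In *mEC1dup/dup* it was at 78.0, 73.1, 75.1, 72.1 and 75.1 CPM, inside the WT range in each library. The log2 fold change was -0.01 with a 95% interval of -0.12 to 0.10 (edgeR quasi-likelihood test, adjusted p = 0.953). For *Kdm3a* and *Vegfa* the interval does not reach the -0.52 measured for *Ndrg1*, and neither do those of *Egln1*, *Pdk1*, *Bnip3* and *Egln3*.

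**Figure D3:**
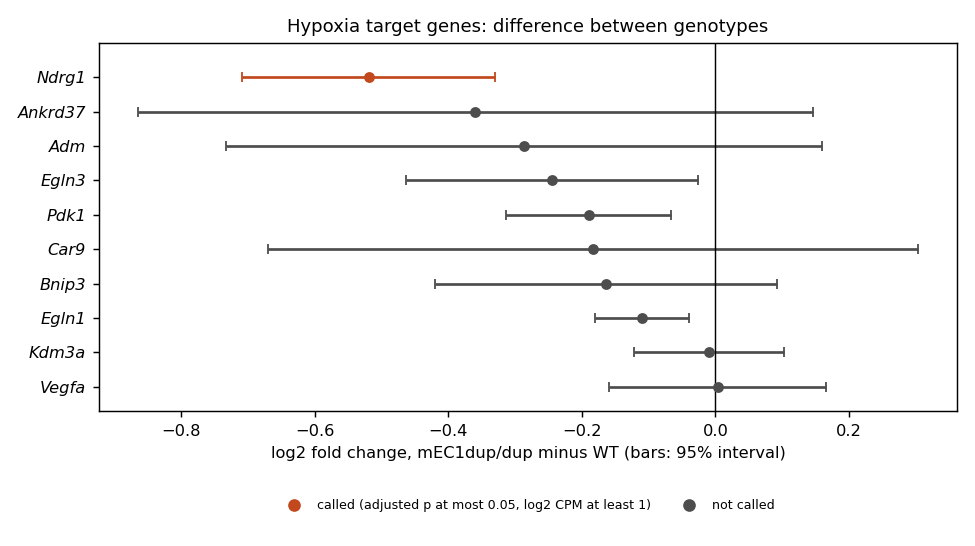
Log2 fold change of each of the 10 genes, *mEC1dup/dup* minus WT (horizontal axis), with its 95% interval; the called gene is coloured. *Ndrg1* at -0.52 is the only called gene, 9 of the 10 estimates are below 0, and the intervals of *Ankrd37*, *Car9* and *Adm* are the widest.

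Single libraries contributed unevenly. WT replicate 4 was the lowest WT library in 7 of the 10 genes, whereas it was the lowest in 26.7% of all tested genes. WT replicate 1 was the highest WT library in 5 of the 10 and in 18.9% of all tested genes. Within the knock-in, replicate 4 was lowest in 4 of the 10 and replicate 5 in none, where they were lowest in 25% and 20.4% of all tested genes. The CPM of the 10 genes added up to 422.7 to 489.4 in WT, the lowest being replicate 4, and to 407.6 to 441.0 in *mEC1dup/dup*, so that the 2 ranges overlapped through that library.

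None of the 6 HIF subunits and none of the 11 genes of hydroxylation and degradation was called in either direction by edgeR. Of all tested genes, 1.81% were called lower and 0.834% higher. An unadjusted p under 0.05 was obtained for 2 of the HIF subunits and 1 of the other list, against 16.2% of all tested genes. Limma-voom also called none of either list, while DESeq2 called *Hif3a* lower and *Arnt2* and *Vhl* higher, as edgeR did without WT replicate 4 (adjusted p = 0.00511, 0.00571 and 0.0189). *Hif1a*, the subunit most closely tied to the glycolytic and mitochondrial targets, was at 113 to 123 CPM in WT and 96.1 to 124 in *mEC1dup/dup* (log2 fold change -0.04). *Epas1*, the HIF2 alpha subunit, had a log2 fold change of -0.02, *Arnt* of -0.02 and *Bmal1* of 0.07. *Hif3a*, which includes inhibitory forms, had one of -0.31 with a standard error of 0.10 (edgeR, adjusted p = 0.135), with *mEC1dup/dup* at 85.6 ± 4.81 CPM and WT at 106 ± 19.0. *Vhl* was at 54.4 to 65.4 CPM in WT and 66.5 to 69.3 CPM in *mEC1dup/dup*, groups that did not overlap, as in 2.33% of all tested genes in this direction, with a log2 fold change of 0.18 (edgeR, adjusted p = 0.0706). *Arnt2*, a partner subunit prominent in neural tissue, had a log2 fold change of 0.17 (edgeR, adjusted p = 0.0706). *Siah2*, a ubiquitin ligase for the Egln proteins, was at 0.11, and *Hif1an*, the asparaginyl hydroxylase, at 0.02.

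Among 36 other hypoxia targets outside glycolysis, 35 were tested, 6 were called lower and none higher, where 1.81% and 0.834% of all tested genes were, and the median log2 fold change was -0.07. An unadjusted p under 0.05 was obtained for 9 lower and 2 higher genes, compared with 16.2% of all tested genes, and neither DESeq2 nor limma-voom called any higher. *Ndufa4l2*, a mitochondrial protein that lowers the activity of the respiratory chain, had the largest change. It was at 13.6, 13.7, 12.01, 8.64 and 10.5 CPM in WT replicates 1 to 5 and at 3.89, 3.75, 4.62, 4.05 and 6.88 CPM in *mEC1dup/dup*. As with *Ndrg1*, the groups were apart and *mEC1dup/dup* replicate 5 was the knock-in library closest to WT. The log2 fold change of *Ndufa4l2* was -1.33 with a standard error of 0.18 (edgeR quasi-likelihood test, adjusted p = 0.00363). *P4ha1* and *P4ha2*, which hydroxylate collagen, fell by 0.31 on the log2 scale each (edgeR, adjusted p = 0.00493 and 0.0224), and without 1 library the call on *P4ha2* was lost in 6 of 10 fits and that on *P4ha1* in none. *Car12*, a carbonic anhydrase like *Car9*, fell by 0.48, *Ppp1r3c*, a glycogen-targeting phosphatase subunit, by 0.40, and *Higd1a*, a mitochondrial membrane protein, by 0.21 on the same scale (edgeR, adjusted p = 0.0134, 0.00979 and 0.0292), and *Higd1a* lost its call in 5 of the 10 fits without 1 library.

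Of the 21 glycolysis genes, the branch of the response left out of the 10, 4 were called lower and none higher, beside the same 1.81% and 0.834% of all tested genes, with a median log2 fold change of -0.13. The 13 with an unadjusted p under 0.05, against 16.2% of all tested genes, were all lower, and neither DESeq2 nor limma-voom called any higher. *Aldoa* fell by 0.27, *Eno3* by 0.57, *Ldha* by 0.21 and the lactate exporter *Slc16a3* by 0.35 on the log2 scale (edgeR, adjusted p = 0.0139, 0.0292, 0.0360 and 0.0235). Of the 10 fits without 1 library, the call was lost in 1 for *Aldoa*, 5 for *Eno3*, 8 for *Ldha* and 6 for *Slc16a3*. *Eno3* is the muscle form of enolase, and the 6 skeletal muscle markers, of which 1 was called lower, summed to 1541 to 2394 CPM in WT and 1074 to 1647 in *mEC1dup/dup*; their part in the result was not tested. *Pfkp*, a phosphofructokinase, had a log2 fold change of -0.49 (edgeR, adjusted p = 0.226).

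The partners of the 2 secreted signals were measured as well, beside the 0.834% of all tested genes called higher and 1.81% called lower. Of 9 VEGF ligands and receptors other than *Vegfa*, *Nrp2*, a coreceptor of lymphatic and nerve cells, was called higher, from 186 ± 12.8 to 216 ± 7.22 CPM (log2 fold change 0.22, edgeR adjusted p = 0.0312), and none was called lower by edgeR, DESeq2 or limma-voom or had an unadjusted p under 0.05 in that direction. *Vegfd* had a log2 fold change of -0.25 (edgeR, adjusted p = 0.360). Of the 4 components of adrenomedullin receptors, *Ramp2* was called lower, from 48.9 ± 3.39 to 41.6 ± 1.97 CPM (log2 fold change -0.23, edgeR adjusted p = 0.0459), and *Ramp1* had a log2 fold change of -0.39 (edgeR, adjusted p = 0.325). The call on *Ramp2* was lost in 9 of the 10 fits without 1 library and with limma-voom, and that on *Nrp2* in 6 of the 10. The 8 endothelial markers, which were never at 0, summed to 517 to 638 CPM in WT and 537 to 600 in *mEC1dup/dup*. None was called by edgeR, DESeq2 or limma-voom, and 1 had an unadjusted p under 0.05, against 16.2% of all tested genes.

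Close relatives of the 10 genes formed another list. Of 17 such genes, 15 were tested, and edgeR and limma-voom called *Car12* lower, where edgeR called 1.81% of all tested genes lower. DESeq2 called *Car12* and *Ndrg2* lower. The median log2 fold change was -0.02. Among the relatives of *Ndrg1*, *Ndrg2* had a log2 fold change of -0.22 and *Ndrg3* one of -0.02 (edgeR, adjusted p = 0.0874 and 0.881). That of *Ndrg4* was -0.28 with a standard error of 0.27 (edgeR, adjusted p = 0.664). *Ndrg4* was at 72.1 CPM in WT replicate 4 and at 22.7 to 36.6 CPM in the other WT libraries. The groups did not overlap in *Ndrg2*, at 68.0 to 79.4 CPM in WT and 53.1 to 66.8 CPM in *mEC1dup/dup*, as in 2.75% of all tested genes in this direction. *Bnip3l*, which shares the mitochondrial role of *Bnip3*, had one of -0.02 (edgeR, adjusted p = 0.888). *Car3*, a muscle carbonic anhydrase, was at 31.3 ± 6.53 CPM in WT and 19.3 ± 6.23 CPM in *mEC1dup/dup* (log2 fold change -0.69, edgeR adjusted p = 0.130). It was lowest in *mEC1dup/dup* replicate 1, at 8.63 CPM, where the other knock-in libraries were at 19.6 to 24.4.

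**Figure D4:**
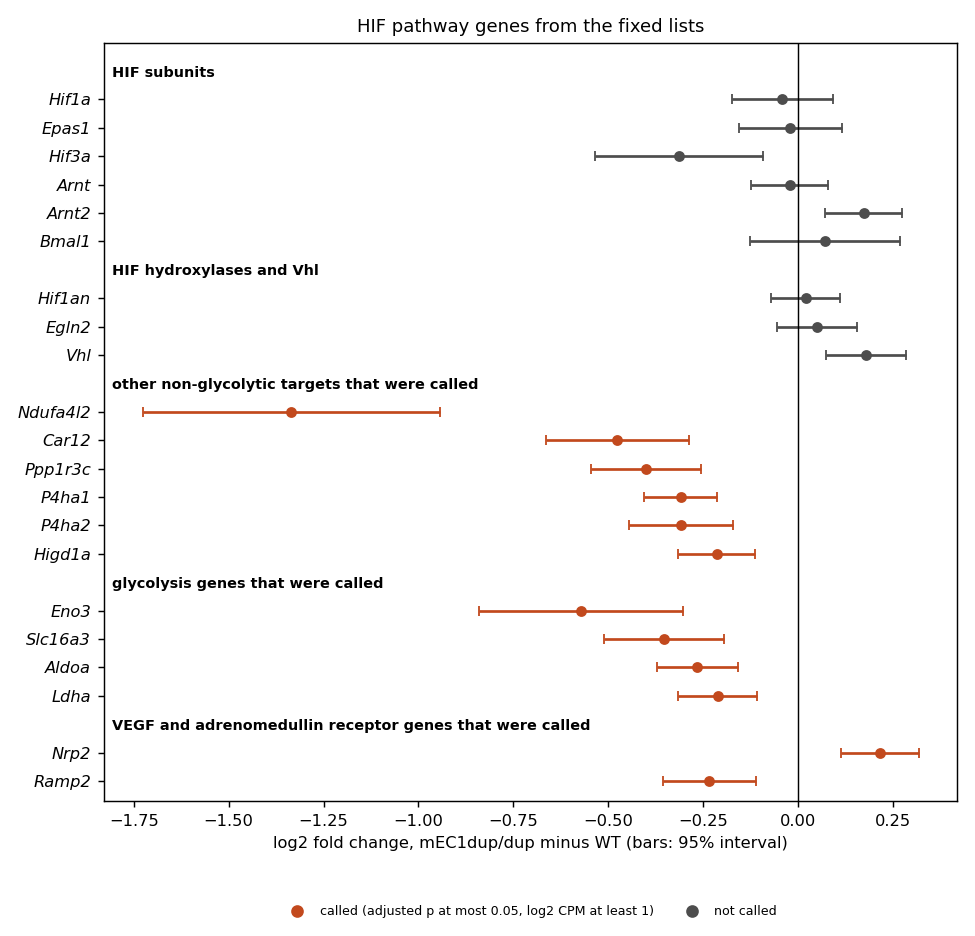
Log2 fold change, *mEC1dup/dup* minus WT (horizontal axis), with its 95% interval, for the named genes of the HIF pathway lists (vertical axis), called genes coloured. The estimates of *Hif1a*, *Epas1* and *Arnt* are near 0, *Ndufa4l2* at -1.33 lies farthest left, and *Nrp2* at 0.22 is the only gene called higher.

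Markers of several cell types moved in the same direction as *Ndrg1*. The 6 suprabasal keratinocyte markers were each called lower, as 1.81% of all tested genes were, and their summed level was 162 to 481 CPM in WT and 55.6 to 78.1 in *mEC1dup/dup*. Of 5 basal keratinocyte markers 3 were called lower, and their sums overlapped, at 712 to 1289 CPM in WT and 535 to 751 in *mEC1dup/dup*. Of 5 mast cell markers 3 were called lower, at sums of 68.5 to 103 CPM in WT and 48.8 to 59.2 in *mEC1dup/dup*. The 5 Schwann cell markers, named because that cell type is known for *Ndrg1*, gave no call by edgeR, DESeq2 or limma-voom, with 1 at an unadjusted p under 0.05, and summed to 191 to 241 CPM in WT and 174 to 232 in *mEC1dup/dup*. Of 7 fibroblast markers 6 had a log2 fold change below 0, with a median of -0.28, and 5 had an unadjusted p under 0.05, against 51.2% and 16.2% of all tested genes. *Lum*, a collagen-binding proteoglycan, was the fibroblast marker called lower, from 398 ± 20.1 to 324 ± 17.8 CPM (edgeR, adjusted p = 0.00740). Among 7 immediate early genes, which respond to the handling of tissue, *Jun* was called higher, as 0.834% of all tested genes were. Its level went from 122 ± 6.87 to 144 ± 3.63 CPM (edgeR, adjusted p = 0.0125). *Fos* was at 5.04 to 6.85 CPM in WT and 2.75 to 4.96 CPM in *mEC1dup/dup* (edgeR, adjusted p = 0.0855). No marker was at 0 in any library. The summed suprabasal markers ranged widely within WT, lowest in replicate 5 and highest in replicate 1, which were also the WT libraries with the lowest and highest *Ndrg1*, whereas *mEC1dup/dup* replicates 1 and 5 were both high in these markers and only replicate 5 was high in *Ndrg1*. The part of these cell types and of handling in the difference of *Ndrg1* was not tested.

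**Figure D5:**
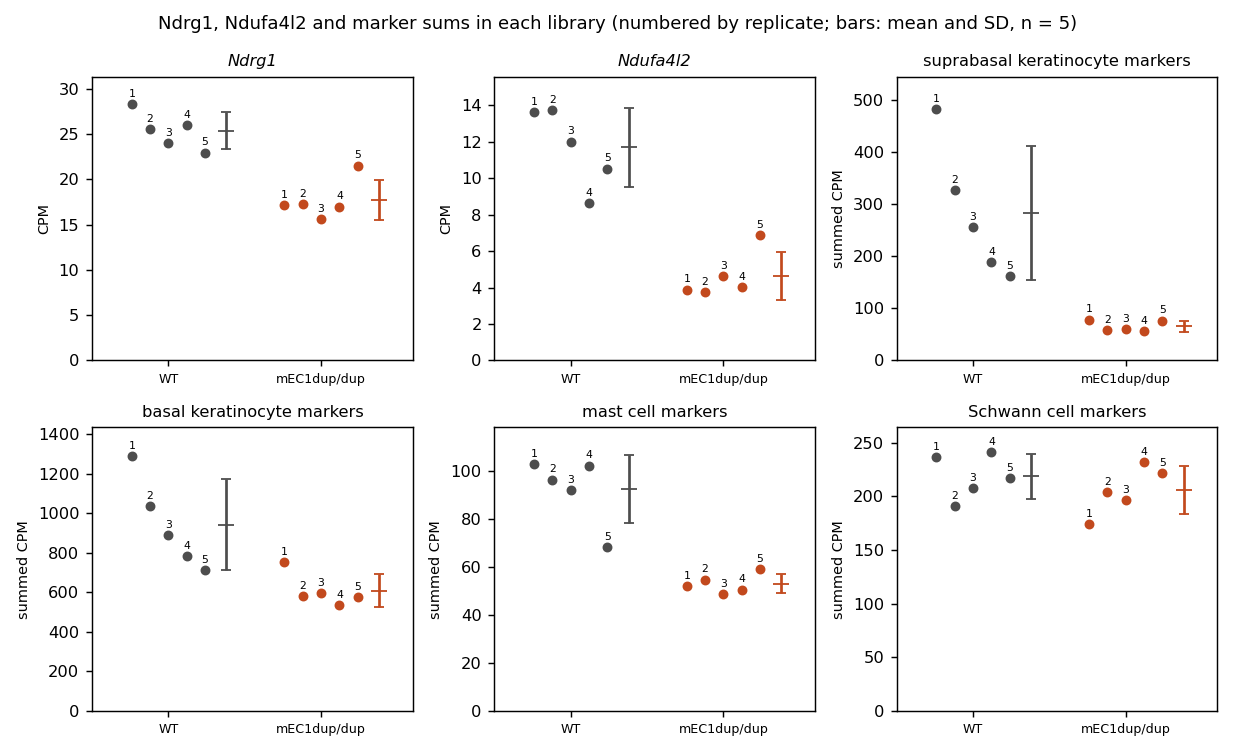
CPM of *Ndrg1* and *Ndufa4l2* and summed CPM of marker lists (vertical axes, from 0) in each WT and *mEC1dup/dup* library, numbered by replicate, with the mean and SD. The genotypes are apart in *Ndrg1*, *Ndufa4l2* and the suprabasal keratinocyte sum, and the Schwann cell sums overlap at 191 to 241 and 174 to 232.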

How the data were processed

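Bulk RNA-seq libraries of the pinna prominence (5 WT, 5 *mEC1dup/dup*) were analysed from the deposited table of raw counts per gene. The authors used fastp for trimming, STAR for alignment to GRCm39 and featureCounts for the counts per gene. The annotation release, the use of strand and the handling of reads with several matches are not given in the sources used here. The labels and the methods name different library kits, both poly-A selected and neither marking strand. GENCODE M39 symbols matched 49355 of 53465 identifiers, and the others held 0.111% of the counts.

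Genes were filtered with filterByExpr, normalized by TMM and fitted in edgeR 4.0.16 (R 4.3.3) by the quasi-likelihood test with genotype as the only term, as the methods name edgeR and limma without a test. All 16426 tested genes entered the Benjamini-Hochberg adjustment. Intervals are 95% intervals for single genes, not adjusted for the number of genes. Reads carry no molecular identifiers. DESeq2 1.42.0, limma-voom (limma 3.58.1), other normalizations and filters, covariates and subsets of libraries were alternatives.

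The 10 genes and all lists were chosen with earlier results of these data known. Genes named were all 10, the HIF subunits, *Vhl*, *Hif1an* and *Egln2*, and from each pathway list the called genes and the 2 with the largest log2 fold change. *Ndrg2*, *Ndrg3*, *Ndrg4*, *Bnip3l*, *Lum*, *Jun* and *Fos* were added after their values were seen. The procedure was tested on simulated data with known changes. Promoter sequences were read from the GRCm39 genome at the starts of GENCODE M39 canonical transcripts, which were found for all 10 genes.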

Additional observations from a re-analysis of the deposited data

Results flagged for a closer look

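In groups of 5 libraries, a value was singled out when its gap to the nearest library exceeded the 95% critical value of Dixon's test, 0.71 of the group's range. Of 46 groups tested 5 were singled out, and chance alone singles out about 5% of groups. *Ndrg1* in *mEC1dup/dup* replicate 5 was at 21.5 CPM, where the other 4 knock-in libraries were at 15.6 to 17.2. In the same library *Ndufa4l2* was at 6.88 CPM (others 3.75 to 4.62), *Higd1a* at 34.9 (others 32.7 to 33.3) and *Aldoa* at 366 (others 319.6 to 326). In each of these 4 genes *mEC1dup/dup* replicate 5, the knock-in library with 0 *Xist* counts, was the one closest to the WT mean. It also had the lowest *Hmx1* of the knock-in libraries, at 52.8 CPM. Its mitochondrial share of counts was the lowest of all libraries, at 1.699% (others 1.923% to 2.092%). Its globin share of counts was the highest, at 0.2893% (others 0.1250% to 0.2033%). *Nrp2* was at 164 CPM in WT replicate 4, where the other WT libraries were at 189 to 198.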

How the results depend on the processing

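*Ndrg1* kept its direction and its call under every other normalization, filter and tool run, without the threshold on log2 CPM, and without each replicate in turn (-0.60 to -0.48). With *Xist* as a covariate it was -0.29, with the 6 libraries of at most 10 *Xist* counts -0.24 and with the embryonic globin share 0.19, none called. The genes called lower among the 10 numbered 1, against 0 with *Xist*, 0 with the globin share, 0 in the 6 libraries and 0 at an adjusted p of at most 0.01, and 1 to 3 without 1 replicate, the 3 coming without WT replicate 4. In those edgeR fits with a covariate or 6 libraries, 2, 1 and 0 of the 10 had an unadjusted p under 0.05.

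Among all tested genes, 297 were called lower and 137 higher, and in the pathway lists 11 and 1. DESeq2 called 516 and 342 (lists 17 and 3). With *Xist* the counts were 1 and 2 (lists 0 and 0), with the globin share 0 and 0 (lists 0 and 0), in the 6 libraries 0 and 0 (lists 0 and 0), at an adjusted p of at most 0.01 62 and 16 (lists 3 and 0), and with knock-in replicates 1 to 3 only, added after seeing the data, 116 and 67 (lists 6 and 0). Without 1 replicate they were 120 to 476 and 34 to 179 (lists 4 to 18 and 0 to 3). Without TMM, also added, 282 and 188 were called, a larger share of higher calls.

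Directions turned as follows (log2 fold change). With *Xist*, *Vegfa* was -0.093, *Epas1* 0.068 and *Egln2* -0.046. In the 6 libraries *Vegfa* was -0.080, *Adm* 0.052, *Kdm3a* 0.00049, *Epas1* 0.074 and *Egln2* -0.074. With knock-in replicates 1 to 3 *Kdm3a* was 0.0043 and *Arnt* 0.014, and without TMM *Kdm3a* was 0.0023. Without 1 replicate *Vegfa* ranged from -0.063 to 0.053, *Kdm3a* from -0.038 to 0.035, *Hif1a* from -0.075 to 0.012, *Epas1* from -0.069 to 0.0090 and *Arnt* from -0.054 to 0.012. With the globin share *Ankrd37* was 1.45, *Egln1* 0.013, *Car9* 0.76, *Adm* 0.68, *Pdk1* 0.11, *Kdm3a* 0.50, *Epas1* 0.54, *Hif3a* 0.70, *Arnt* 0.073, *Bmal1* -0.12, *Vhl* -0.10, *Egln2* -0.42, *Siah2* -0.21, *P4ha2* 0.31, *Car12* 0.13, *Ndufa4l2* 0.29, *Vegfd* 0.48 and *Ramp2* 0.078. The cause was not tested for any of these.

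With the replicate number as a replicate block, *Ndrg1* was -0.52 (edgeR, adjusted p = 0.0112), 487 of 16426 tested genes were called lower and 200 higher, and 2 of the 10 were called lower, *Ndrg1* and *Pdk1* (-0.19, edgeR adjusted p = 0.0250). In the pathway lists 16 genes were called lower and 1 higher. *Hif3a*, *Pfkp* and *Car3* were among the genes called lower with the block but not without it. The replicate numbers were not taken as pairing, since same-numbered libraries deviated together above 0.1 in 4 of 5 pairs only (correlations -0.0558 to 0.345). Only 2 of 5 WT and 2 of 5 knock-in libraries correlated best with their own number. The mean correlation was nevertheless higher for same-numbered pairs, at 0.162, than for the other pairs, at -0.0403. Whether the numbers mark litters is not given.

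Depth limits *Ankrd37*, *Adm* and *Car9*, with 14 to 44 counts per library. Sex is unbalanced between the genotypes, with *mEC1dup/dup* replicate 5 alone among the knock-in libraries having at most 10 *Xist* counts, as the WT libraries do, whereas the embryonic globin share separates the genotypes completely and cannot be told apart from them. Among the called genes of the pathway lists, *Ndufa4l2*, *P4ha1*, *Ppp1r3c* and *Car12* kept their call without each replicate in turn. The other called genes of those lists lost it in 1 to 9 of the 10 fits. No such count was made for the called markers.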
